A study of Homo sapiens with 6 samples.

Results

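The genes described here encode surface receptors and caveolins, 9 proteins that mark basal-type breast cancer cells: EGFR, AXL, MET, EPHA2, CD44, CAV1, CAV2, TGFBR2 and NRP1. For each gene, every region of the 6 deposited peak lists was taken that overlapped the gene's RefSeq span extended by 20 kb on both sides, which is called its window below. The windows held 953 of the 998906 regions of the 6 lists on chromosomes 1 to 22 and X, and the 9 genes were set beside 19974 protein-coding genes treated in the same way. CAV2 and CAV1 lie next to each other with 16.5 kb between them, so their windows overlap, and the 9 windows merged into 8 stretches of 1113 kb in all. A region lying in both caveolin windows was counted once wherever windows are pooled.

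CUT&Tag, in which an antibody guides the Tn5 transposase to cut out nearby DNA for sequencing, was performed in MDA-MB-231 cells, an established line of triple-negative breast cancer. NONO, an RNA- and DNA-binding nuclear protein, was profiled in NC (control) cells and in cells with NONO knockdown (NONO-KD). H3T11ph, a phosphorylated threonine of histone H3 that the study attributes to the kinase PKM2, and H3K27ac, an acetylated lysine of the same histone found at active promoters and enhancers, were each profiled in NC cells and in cells with PKM2 knockdown (PKM2-KD). The labels give NC the genotype WT, and the reagent behind each knockdown library, siRNA or shRNA, is not given in the sources used here. All 6 groups come from 1 cell line and hold 1 library each, so there was no replicate error and no test between conditions, and every difference below describes these libraries.

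The caller's values allowed the summit height of each region, in fragments, and the depth of each library to be recovered. Implied depth was between 2.84 and 3.42 fragments per kb in the NONO and H3T11ph libraries, and 7.46 (NC) and 7.48 (PKM2-KD) in those of H3K27ac. Lists were not all called alike: 94.6% of NONO NC regions and 79.3% of H3K27ac NC regions had exactly the narrowest width of their list, against between 1.19% and 2.05% in the other 4 lists. Knockdown and peak calling therefore cannot be told apart in the region counts of the NONO and H3K27ac pairs, while the H3T11ph lists were of 1 form. The H3K27ac libraries had nearly the same depth and narrowest width (112 and 113 bp), so their summit heights, unlike their folds and counts, were set side by side. Every NC height of H3K27ac, and so every height ratio below and the NC depth, rests on a factor of 0.521 by which that list's values were taken to be scaled: 100% of the rows tried gave whole fragments with it and 0.333% without, and no other list needed one. An error in this factor would shift all the ratios together. Intervals below are at the 95% level and cover counting error only.

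EGFR, AXL, MET and EPHA2 are receptor tyrosine kinases, which dimerise or cluster when a ligand binds and then phosphorylate tyrosines to start signalling inside the cell. CD44 binds hyaluronan of the matrix, TGFBR2 is the serine/threonine kinase that binds TGF-β, and NRP1 is a co-receptor for semaphorins and VEGF. Caveolin proteins (CAV1 and CAV2) coat caveolae, small pits of the plasma membrane in which receptors gather. These genes are known for high expression in basal-like and mesenchymal breast cancer lines such as MDA-MB-231.

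Start sites were taken from RefSeq promoters of GRCh38.p14, which matched 8 of the 9 genes with 14 starts; NRP1 had no entry, and both of its gene ends were used. The 250 bases upstream of a start are printed below for the 4 genes whose start regions the results turn on, 5′ to 3′ on the + strand, with matches to a GC box (GGGCGG or its complement) or a TEAD motif (GGAATG or its complement) in capitals. The CAV1 sequences are shown because H3K27ac regions of both libraries lay over the third start, with a NONO region there in NC only and an H3T11ph region in PKM2-KD only, AXL for the wide acetylated stretch that ends there, MET for the H3T11ph region at its start, and CD44 because its start had the larger acetylation summit in PKM2-KD. They lie at chr7:116524759-116525008 and chr7:116526112-116526361 (CAV1), chr19:41226505-41226754 (AXL), chr7:116671946-116672195 (MET) and chr11:35138921-35139170 (CD44).
CAV1, the first start: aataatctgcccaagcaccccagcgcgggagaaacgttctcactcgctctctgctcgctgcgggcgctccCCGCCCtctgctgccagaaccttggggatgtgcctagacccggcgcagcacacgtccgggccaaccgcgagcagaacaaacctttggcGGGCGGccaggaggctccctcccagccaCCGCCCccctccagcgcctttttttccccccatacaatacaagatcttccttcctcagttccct
CAV1, the third start: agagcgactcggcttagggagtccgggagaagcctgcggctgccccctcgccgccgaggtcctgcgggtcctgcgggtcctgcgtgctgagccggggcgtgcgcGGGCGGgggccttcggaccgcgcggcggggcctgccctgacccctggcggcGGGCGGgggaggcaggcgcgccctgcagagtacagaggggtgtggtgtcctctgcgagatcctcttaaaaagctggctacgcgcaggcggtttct
AXL, the second start: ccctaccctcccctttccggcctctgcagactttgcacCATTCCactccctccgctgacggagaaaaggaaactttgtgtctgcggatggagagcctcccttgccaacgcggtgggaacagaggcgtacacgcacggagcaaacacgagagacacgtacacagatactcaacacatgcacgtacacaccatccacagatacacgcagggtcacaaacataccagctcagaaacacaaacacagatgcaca
MET, the start: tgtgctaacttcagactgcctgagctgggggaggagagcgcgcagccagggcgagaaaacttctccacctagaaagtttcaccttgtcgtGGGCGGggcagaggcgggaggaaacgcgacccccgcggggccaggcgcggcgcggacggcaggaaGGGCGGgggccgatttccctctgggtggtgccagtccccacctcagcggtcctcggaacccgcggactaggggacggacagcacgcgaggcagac
CD44, the start: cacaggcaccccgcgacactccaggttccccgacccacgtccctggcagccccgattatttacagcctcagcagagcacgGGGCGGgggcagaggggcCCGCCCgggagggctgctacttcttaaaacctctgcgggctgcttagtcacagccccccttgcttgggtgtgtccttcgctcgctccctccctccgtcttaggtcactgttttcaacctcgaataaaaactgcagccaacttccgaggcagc

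Over the 14 member promoters, 11 held a GC box, which is the binding motif of SP/KLF factors, and all 8 genes had it in at least 1 promoter. Of 22132 promoters of protein-coding genes with the same length, 53.7% held it. That share is per promoter. The share of genes with a GC box in at least 1 promoter was not counted over all genes, so the 8 of 8 has no background beside it. Promoters of 1 gene that overlap, as at the first 2 CAV1 starts and at TGFBR2, were counted separately in both sets. The same motif can thus be counted more than 1 time. A TEAD motif was found in 3 promoters (AXL, EGFR and EPHA2) and in 10.5% of all promoters, an AP-1 motif (TGANTCA) in 1 (the second EGFR start) and in 5.35%, a CCAAT box (CCAAT) in 2 (both at TGFBR2) and in 32.7%, and a TATA box (TATAAA) in 1 (the second EGFR start) and in 8.996%. All motifs were searched on both strands, and overlapping motifs were counted for each. Median GC content was 63.4% over the member promoters and 62.0% over all promoters. A match describes letters only.

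H3K27ac covered more of these windows than of the typical gene window, in both libraries. The median share of a window covered by H3K27ac regions was 11.2% over the 9 genes in NC, against 3.64% over all genes, and 13.4% in PKM2-KD, against 2.59%. All 9 genes lay above the median of all genes in each list. At least 1 H3K27ac region lay in 9 of 9 windows in NC, where 99.3% of all windows had one, and in 9 of 9 in PKM2-KD, where 96.2% did. Within 1 kb of a start site, 9 of 9 genes had an H3K27ac region in NC (71.1% of all genes) and 9 of 9 in PKM2-KD (62.1%).

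Acetylation was not equal among the genes. EPHA2, a receptor for ephrin-A ligands on neighbouring cells, had the highest covered share, 21.5% in NC and 28.3% in PKM2-KD. EGFR followed in NC with 20.1%, and had 21.5% in PKM2-KD. AXL, the receptor for GAS6, had 16.3% and 22.9%, and NRP1 16.3% and 22.8%. CD44 (11.2% and 10.5%), CAV2 (10.5% and 13.4%), TGFBR2 (9.18% and 10.8%), CAV1 (7.68% and 8.51%) and MET (6.999% and 6.78%) had less. MET, the receptor for HGF, was lowest in both, and 14.4% of all genes had at least its coverage in NC. For EPHA2, EGFR, AXL and NRP1 that figure was below 1 in NC: 0.220%, 0.335%, 0.856% and 0.861%.

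The highest H3K27ac fold of each window gave another order, and folds are compared within a library only. In NC it was 135.9 at EGFR, 62.8 at NRP1, 54.7 at EPHA2, 45.7 at MET, 42.1 at CD44, 39.2 at TGFBR2, 22.1 at CAV1, 18.9 at CAV2 and 9.71 at AXL. In PKM2-KD it was 147.5 at NRP1, 127.4 at EGFR, 77.5 at MET, 74.3 at TGFBR2, 57.5 at CD44, 33.6 at CAV1, 26.7 at EPHA2, 24.1 at AXL and 18.4 at CAV2. The medians of 42.1 and 57.5 stood beside 9.77 and 11.5 over all genes, and AXL in NC was the 1 value below the median of all genes. A highest fold is taken over all regions of a window, so a longer window has more chances of a high value. The windows ran from 48.8 kb (CAV2) to 232.6 kb (EGFR). Window length was not corrected for, here or for the other targets below.

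**Figure D1:**
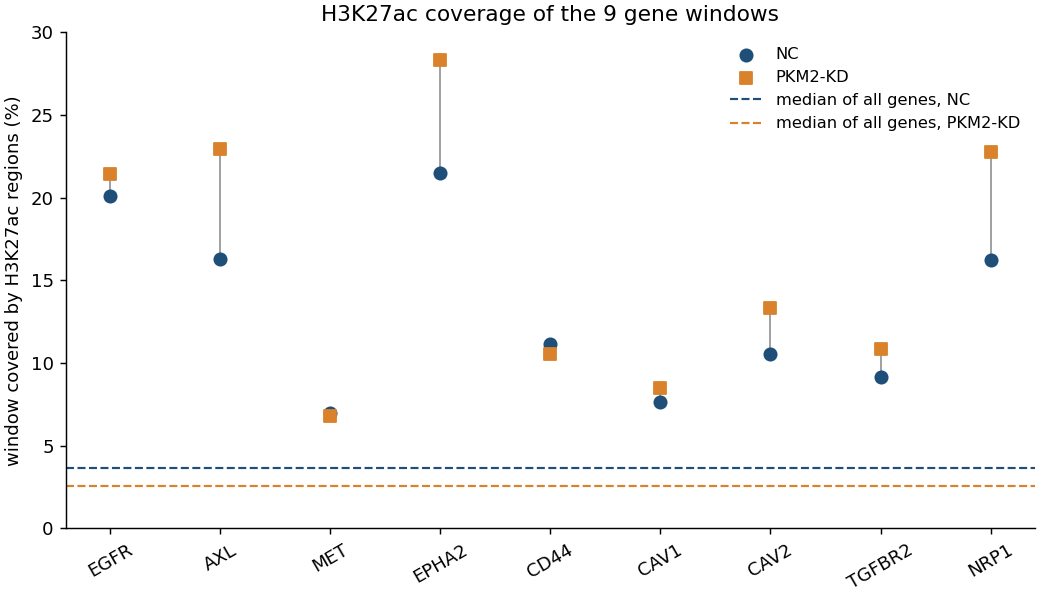
Share of each gene window covered by H3K27ac regions, in percent, for NC (circles) and PKM2-KD (squares), 1 library each; dashed lines mark the median of 19974 genes (3.64% and 2.59%). All 9 genes lie above both lines, and CD44 and MET alone are lower in PKM2-KD than in NC. The lists were not called alike, so knockdown and calling cannot be told apart in these differences.

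The paralogs of these genes were nearer the typical gene. Over 14 paralogs the median covered share was 4.18% in NC and 3.94% in PKM2-KD, and the highest was EPHA1 with 7.56% and 10.97%. ERBB2, ERBB3 and ERBB4, the relatives of EGFR, had 6.18%, 4.59% and 1.54% in NC. TYRO3 and MERTK, the relatives of AXL, had 2.69% and 4.66%. MST1R, which is related to MET, had 3.12%, NRP2 5.55%, TGFBR1 2.03%, TGFBR3 2.72% and the muscle caveolin CAV3 3.78%. EPHA4, EPHB2 and EPHB4 had 2.25%, 4.98% and 5.42%. In NC each of the 9 genes except MET (6.999%) was above EPHA1 and so above all 14 paralogs. In PKM2-KD CD44, TGFBR2, CAV1 and MET were below EPHA1, and the other 5 genes were above it.

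Among 17 ligands and partners of these receptors the median covered share was 7.001% in NC and 8.16% in PKM2-KD. In NC the highest was EHD2 (13.7%), an ATPase at the neck of caveolae, and the lowest was EGF (1.53%). In PKM2-KD the highest was the AXL ligand GAS6 (13.9%) and the lowest was the MET ligand HGF (0.244%). Regions at the start were found for 15 of 17 in NC and 11 of 17 in PKM2-KD.

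As a check of the cell type, the mesenchymal markers VIM, ZEB1, FN1 and SPARC had H3K27ac at a start in 4 of 4 cases in both libraries, and a median of 7.28% (NC) and 9.75% (PKM2-KD) of their windows covered. Coverage was 24.7% and 24.8% at VIM, 10.3% and 16.3% at SPARC, 4.29% and 3.18% at ZEB1, and 4.30% and 1.75% at FN1, the last below the median of all genes in PKM2-KD. The luminal markers had a start region in 6 of 7 cases in NC and 5 of 7 in PKM2-KD, with medians of 4.59% and 2.82%. EPCAM had none at its start in NC, and CDH1 and ESR1 none in PKM2-KD. The lists did not part cleanly, since in NC ZEB1 and FN1 were below the luminal median and the luminal marker GATA3 (12.5%) was above them.

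The number of H3K27ac regions and the length they covered went in different directions. The pooled windows held 461 NC regions and 334 PKM2-KD regions, a ratio of 72.5% (62.7 to 83.6), against 37.1% over the whole lists. The direction of that ratio turned under 3 of the alternative settings: it was 118.6% at a −log10 q of at least 5, 140.9% among wider regions and 132.0% with lists of equal length. The covered length was 152.9 kb in NC and 181.4 kb in PKM2-KD. Covered length also depends on how regions were called, so knockdown and calling cannot be told apart in it. Region counts were halved or less in 3 of 9 windows (CD44, CAV1 and CAV2), where 63.8% of all windows were, and doubled in 0 of 9, where 0.352% were. At a summit of 20 fragments or more there were 149 regions in NC and 132 in PKM2-KD (88.6%, 69.6 to 112.7), against 60.4% over the whole lists.

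A region of the PKM2-KD list overlapped 221 of the 461 NC regions (47.9%, 43.4 to 52.5), against 13.3% over the whole lists. Overlapping regions formed 194 sites called in both libraries, and at each site the tallest summits were compared, wherever in the site they lay. The median log2 ratio of PKM2-KD to NC was 0.19 over these sites and 0 over the 67859 sites of the whole lists. The summit was taller in PKM2-KD at 119 sites, lower at 70 and equal at 5 (31882, 32845 and 3132 over the whole lists). It was at least 2 times taller at 17 sites (8.76%; 9.19% of all sites) and at least 2 times lower at 15 sites (7.73%; 12.1% of all sites), so the members' shares were near or below those of all sites. A site compares called regions only, and a narrow NC region may not reach the place of a taller PKM2-KD summit. The interval of the ratio lay above 100% at 34 of the 194 sites and below it at 18. That count was not made over all sites. These numbers, and those given for each gene below, therefore have no background share to stand beside.

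**Figure D2:**
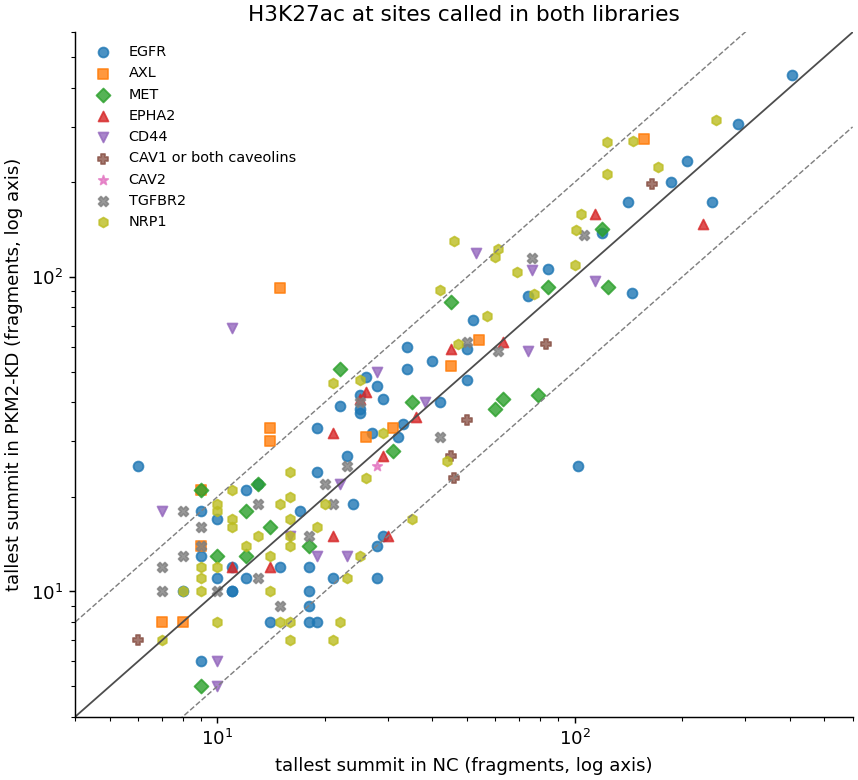
Tallest H3K27ac summit in PKM2-KD against NC, in fragments on log axes, at the 194 sites called in both libraries; each point is a site, colours and shapes mark the gene, the solid line marks equal heights and dashed lines a ratio of 2. Most points lie between the dashed lines, and 119 lie above the solid line and 70 below it.

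EGFR, the receptor for EGF and related ligands, had its tallest acetylation summits inside the gene rather than at the first start. Its window (chr7:54999017-55231628) held 119 acetylated regions in NC against 84 in PKM2-KD, and 113 and 77 of them had their summit in the gene span. At the first start the region of chr7:55018565-55019294 had a summit of 26 fragments in NC, and that of chr7:55018334-55019372 had 48 in PKM2-KD (184.6%, 112.3 to 310.0). The caller's fold there was 6.86 in NC and 3.405 in PKM2-KD, with a caller's background of 2.15 and 13.39 fragments. Fold and height thus went in opposite directions at this start. The tallest summits lay 113.7 kb downstream, at 405 fragments in NC and 440 in PKM2-KD (108.6%, 94.7 to 124.6). A further pair lay 55.1 kb downstream, at 287 and 306 fragments (106.6%, 90.5 to 125.7). Both intervals include 100%, so no difference beyond counting error was seen here.

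Other EGFR sites differed in both directions. Higher in PKM2-KD, besides the first start, were chr7:55140436-55141092 with 6 fragments in NC and 25 in PKM2-KD (416.7%, 166.9 to 1242) and chr7:55153844-55154604 with 34 and 60 (176.5%, 114.0 to 277.2). Others were lower. At 141.7 kb downstream (chr7:55160566-55161460) the summit was 102 fragments in NC and 25 in PKM2-KD, 24.5% of NC (15.2 to 38.3). The summits lay at chr7:55160758 in NC and chr7:55161063 in PKM2-KD, so this ratio compares different places of the site. At 137.3 kb the summit was 243 in NC and, at 137.2 kb in PKM2-KD, 173 (71.2%, 58.2 to 86.9). At 33.3 kb it was 145 in NC and, at 33.2 kb in PKM2-KD, 89 (61.4%, 46.6 to 80.5). Of 57 shared EGFR sites, 35 were taller in PKM2-KD and 22 lower, and the interval of the ratio lay above 100% at 5 and below it at 6. The median log2 ratio was 0.14.

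**Figure D3:**
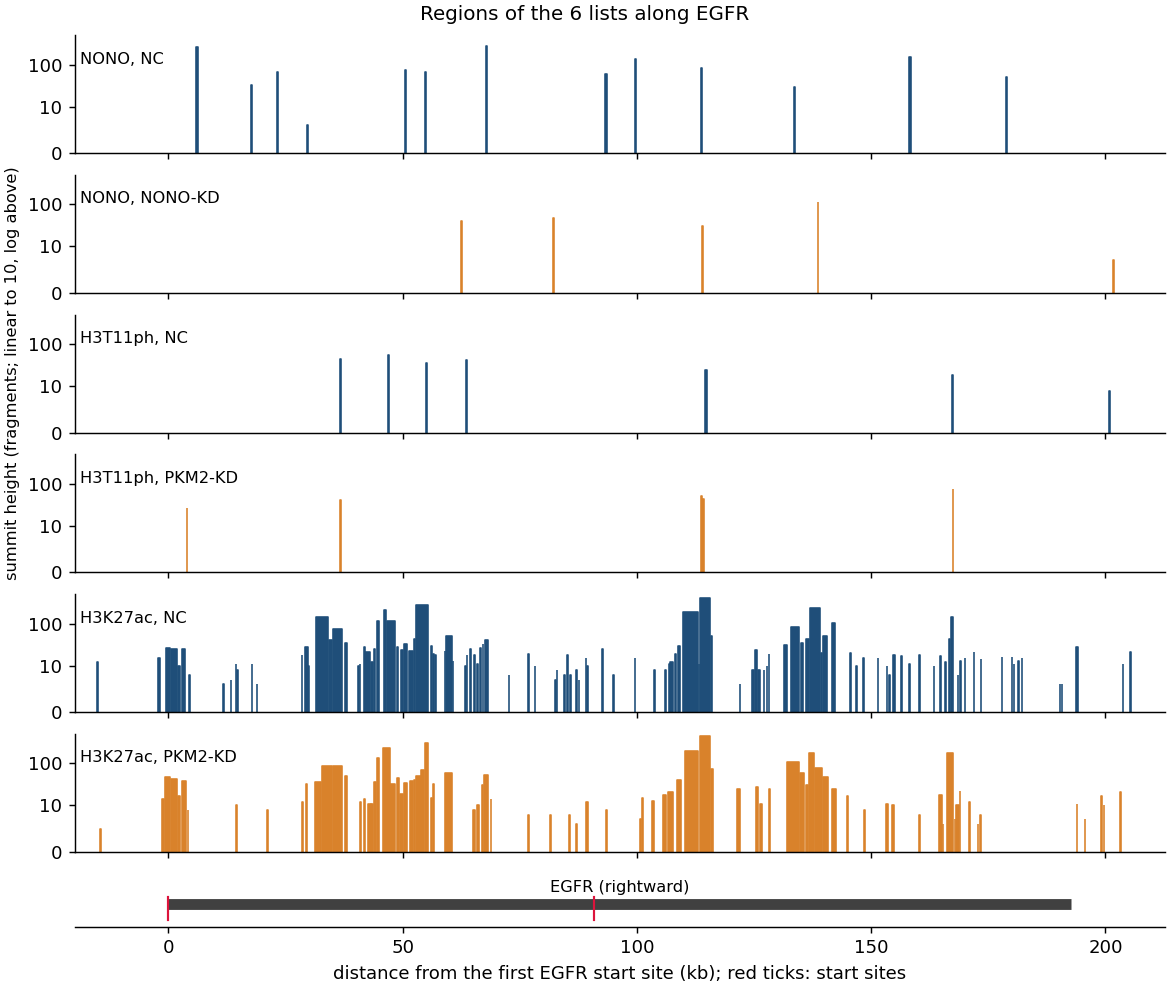
Regions of the 6 lists along EGFR, by distance from the first start in kb; bar width is the region's width, bar height its summit in fragments (linear to 10, log above), blue NC and orange knockdown, with red ticks at the start sites. The H3K27ac clusters inside the gene are present in both libraries, with summits of 405 and 440 fragments at 113.7 kb, while few NONO and H3T11ph bars recur.

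AXL had the widest acetylated region of all 9 genes, and it was taller in PKM2-KD. The region ran over chr19:41219938-41227167 in NC (7230 bp) and chr19:41219883-41227204 in PKM2-KD (7322 bp), from just after the first start to past the second. Its summit was 156 fragments in NC and 274 in PKM2-KD (175.6%, 143.8 to 215.2). The caller's fold at that summit was 4.84 in NC and 24.1 in PKM2-KD, with a caller's background of 30.7 and 10.4 fragments, so the folds differed more between the libraries than the heights did. Of 12 shared sites in the AXL window, 11 were taller in PKM2-KD, 1 was equal, and the median log2 ratio was 0.45. Some of these sites lay past the end of AXL. Among them was the site of the largest ratio, chr19:41263967-41265157, with 15 fragments in NC and 92 in PKM2-KD. At a −log10 q of at least 5 in both lists, 3 sites were left, all taller in PKM2-KD, with a median log2 ratio of 0.22. The window also reaches the neighbours CYP2S1 and HNRNPUL1, and 15 of its 32 NC regions had their summit in the flanks rather than in AXL.

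MET, the receptor for HGF, lies 111.0 kb past CAV1 on the same chromosome. Its start carried 35 fragments in NC (chr7:116671663-116673049) and 40 in PKM2-KD (chr7:116671708-116673508). Taller summits lay 15.9 kb downstream (119 in NC and 142 in PKM2-KD; 119.3%, 92.9 to 153.5) and 17.6 kb downstream (124 and 93; 75.0%, 56.7 to 98.9). The first of these intervals includes 100%. Among sites whose interval did not, the ratio was 184.4% (126.8 to 271.4) at chr7:116706583-116706866, 231.8% (138.1 to 401.4) at chr7:116773101-116773714 and 53.2% (35.7 to 78.3) at chr7:116716664-116717378. Of 18 shared sites 11 were taller in PKM2-KD and 7 lower, and the interval lay above 100% at 3 and below it at 4.

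EPHA2, the ephrin receptor, had as many shared sites taller in PKM2-KD (6) as lower (6), with 1 equal. Its widest region, inside the gene at chr1:16143349-16147484 in NC (4136 bp), had 229 fragments in NC and 147 in PKM2-KD (64.2%, 51.8 to 79.3). The summits lay at chr1:16145802 in NC and chr1:16144036 in PKM2-KD, so this ratio compares different places of the site. The site at chr1:16137720-16140557, which was the tallest and of the highest fold in PKM2-KD, had 114 and 159 (139.5%, 109.0 to 179.0). By their tallest summits the 2 sites went in opposite directions. At the start (chr1:16155995-16157265 in NC) both libraries had 36 fragments.

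CD44, the hyaluronan receptor, had fewer regions in PKM2-KD and a taller summit at its start. The window held 57 regions in NC against 26 in PKM2-KD (45.6%, 27.5 to 73.7), with 14.9 and 14.0 kb covered. At the start, the region of chr11:35138649-35140299 had 53 fragments in NC and that of chr11:35138467-35140475 had 119 in PKM2-KD (224.5%, 161.1 to 316.5), with summits 19 and 578 bp past the start. The tallest NC summit, 27.6 kb downstream, had 114 fragments and 97 in PKM2-KD (85.1%, 64.2 to 112.5), below the summit at the start. The CD44 window also reaches the gene SLC1A2.

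TGFBR2, whose window also holds LOC105377015, had 61 fragments at its start in NC and 58 in PKM2-KD. Its widest region, 53.3 kb downstream at chr3:30657807-30659998 in NC, had 106 and 136 fragments (128.3%, 98.8 to 167.0). Of its 20 shared sites 13 were taller in PKM2-KD and 6 lower, and 1 interval lay above 100% and 0 below.

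NRP1, the semaphorin and VEGF co-receptor, had 106 regions in NC and 103 in PKM2-KD (97.2%, 73.4 to 128.7), with 32.1 and 44.9 kb covered, and 57 of the 106 (53.8%, 44.3 to 63.0) were found again at the same place. At chr10:33262339-33265848 the summit was 123 fragments in NC and 269 in PKM2-KD (218.7%, 176.0 to 273.0), at chr10:33251186-33254193 it was 46 and 130 (282.6%, 200.5 to 404.7), and at chr10:33258421-33259767 it was 146 and 271 (185.6%, 151.2 to 228.6). These sites lay inside the gene. At the first of them the summits lay at chr10:33264787 in NC and chr10:33264358 in PKM2-KD, so its ratio compares different places of the site. The tallest site of each library was chr10:33237619-33240473, with 248 and 315 fragments (127.0%, 107.2 to 150.6). Of 53 shared sites the interval lay above 100% at 14 and below it at 4 (not counted over all sites), and the median log2 ratio was 0.29.

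The caveolin genes, which code for the coat proteins of caveolae, shared a tall site at the CAV1 starts. The summit was 165 fragments in NC (chr7:116524522-116524792) and 197 in PKM2-KD (chr7:116524581-116525848; 119.4%, 96.6 to 147.7). A neighbouring summit near the third start had 135 in NC (chr7:116525349-116526988) and 134 in PKM2-KD (chr7:116525995-116527148). In the chained comparison these regions form 1 site. CAV2 had lower summits at its own starts, 28 at most in NC and 25 in PKM2-KD. Of 6 shared CAV1 sites 4 were lower in PKM2-KD, with a median log2 ratio of -0.48, and for CAV2 it was -0.51 over 5 sites, 4 of them lower. These were the lowest medians of the 9 genes, and their windows share sites.

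NONO regions were fewer after NONO knockdown in all 9 windows. The pooled windows held 67 regions in NONO NC and 17 in NONO-KD (25.4%, 14.0 to 43.7), against 49.6% over the whole lists. At least 1 NONO region lay in 9 of 9 windows in NC (90.4% of all windows) and in 8 of 9 in NONO-KD (69.8%), TGFBR2 having none. Of the 7 windows with 4 or more regions in the lists together, 7 were halved or less, as were 68.3% of all such windows, and 0 were doubled, as were 3.37%. AXL held 16 in NC and 1 in NONO-KD, EPHA2 14 and 3, EGFR 13 and 5, and NRP1 10 and 3. CD44 held 6 and 3, MET 3 and 1, CAV1 3 and 1, CAV2 2 and 1, and TGFBR2 2 and 0. The lists were not called alike, with narrowest widths of 269 and 98 bp, so NONO summit heights were not compared.

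Few NONO regions recurred at the same place. Of the 67 regions in NC, 2 (2.99%, 0.823 to 10.3) overlapped a region in NONO-KD, against 2.01% over the whole lists. The EGFR pair lay at chr7:55132643-55132974 in NC and chr7:55132946-55133064 in NONO-KD, and the EPHA2 pair at chr1:16144677-16144945 and chr1:16144545-16144684. Both overlapped an H3K27ac region in NC.

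At starts, NONO regions were present for 3 of 9 genes in NC (AXL, CAV1 and TGFBR2; 23.5% of all genes) and for 3 of 9 in NONO-KD (AXL, CAV1 and NRP1; 8.25%). At AXL the NC region chr19:41225643-41226012 had the tallest NONO summit of all windows, 497 fragments with a fold of 96.4, with its summit at -992 bp from the second start. At CAV1 the NC region chr7:116526111-116526379 lay over the third start (90 fragments, fold 14.8), and the NONO-KD region chr7:116525006-116525125 over the first (62 fragments, fold 11.9). The highest NONO fold of all was at NRP1, 152.1 at chr10:33350787-33351315 in NC, in the flank rather than in the gene.

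The highest NONO fold of a window in NC was above 100 at the kinases EGFR (138.5), MET (136.9) and AXL (125.4) as well as at NRP1, and lower at CD44 (51.6), EPHA2 (49.6), CAV1 (38.4), TGFBR2 (36.3) and CAV2 (14.8). The median over the 9 genes was 51.6, against 61.1 over all genes, and 4 of 9 lay above the latter (a gene without a region counts as 0 in these medians). In NONO-KD the highest fold was 88.7 at EGFR, 62.6 at CD44, 55.0 at EPHA2, 37.1 at NRP1, 28.0 at AXL, 17.2 at MET and 11.9 at both caveolin genes, which share that region, while TGFBR2 had no region, with a median of 28.0 against 32.1 over all genes.

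H3T11ph, the pair called alike, was not fewer in these windows after PKM2 knockdown. The pooled windows held 35 regions in NC against 39 in PKM2-KD (111.4%, 68.8 to 181.2), against 85.7% over the whole lists (84.5 to 86.9). The interval spans both 100% and the whole-list value, so a fall of the size seen over the lists was not detectable at this count. At least 1 region lay in 8 of 9 windows in NC (73.2% of all windows) and in 9 of 9 in PKM2-KD (69.6%). Counts were halved or less in 0 of 9 windows (27.5% of all windows with 4 or more regions) and doubled in 2 of 9, CAV1 and CAV2 (19.3%). With summits of 20 fragments or more, there were 31 regions in NC and 34 in PKM2-KD (109.7%, 65.4 to 184.5), against 101.4% over the whole lists.

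**Figure D4:**
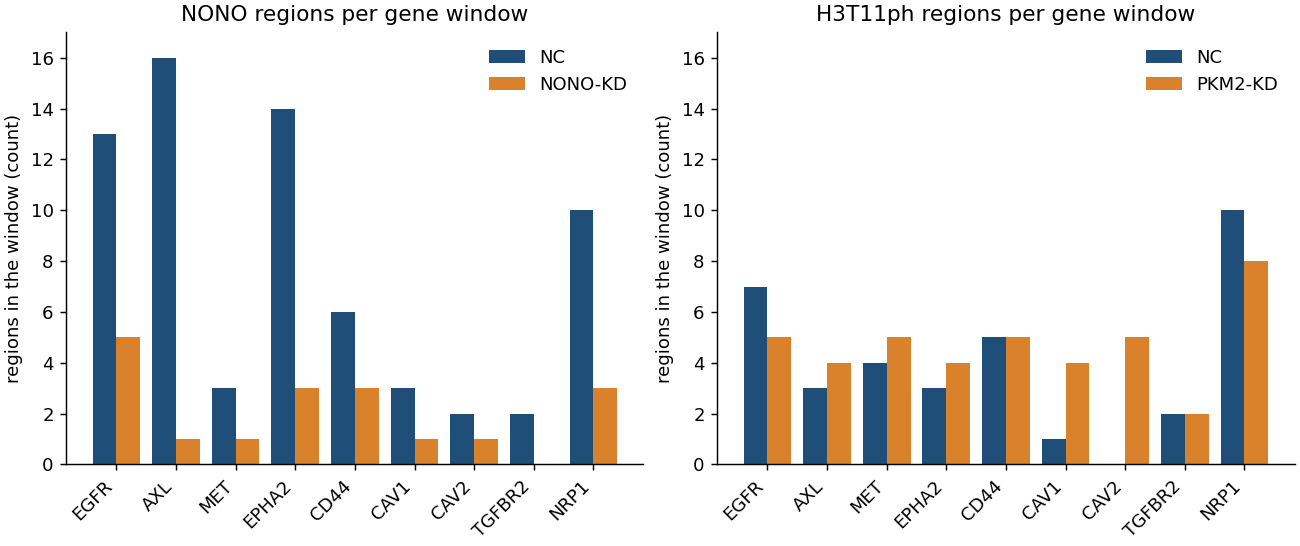
Number of NONO (left) and H3T11ph (right) regions in each gene window in NC and in knockdown, 1 library each. NONO counts are lower in knockdown in every window, from 16 to 1 at AXL, while H3T11ph counts differ by at most 2 except at CAV1 (1 and 4) and CAV2 (0 and 5).

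H3T11ph counts of most genes were close in the 2 libraries. EGFR held 7 (NC) and 5 (PKM2-KD) regions, NRP1 10 and 8, AXL 3 and 4, MET 4 and 5, EPHA2 3 and 4, CD44 5 and 5, and TGFBR2 2 and 2. The caveolin windows stood apart: the CAV2 to CAV1 stretch held 1 region in NC, 44.9 kb past the first CAV1 start with 12 fragments, and 6 in PKM2-KD with 10 to 45 fragments. The largest of these lay in CAV1 at chr7:116548853-116548991, with a fold of 35.1. CAV1 and CAV2 share 3 of the regions in PKM2-KD, so they are not separate observations, and with counts this low the interval for CAV1 (400%, 39.6 to 19699) sets no direction.

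The highest H3T11ph fold of a window was above the median of all genes for 7 of the 9 genes in NC and for 9 of 9 in PKM2-KD. MET was highest in both libraries, with 53.9 in NC and 67.1 in PKM2-KD. In NC it was followed by EPHA2 (46.2), NRP1 (43.7), EGFR (40.1), CD44 (37.9), AXL (26.6), TGFBR2 (24.8) and CAV1 (9.47), CAV2 having no region. In PKM2-KD the others lay between 25.0 at CAV2 and 35.9 at CD44. The medians were 37.9 and 32.0 over the 9 genes and 19.0 and 20.4 over all genes.

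**Figure D5:**
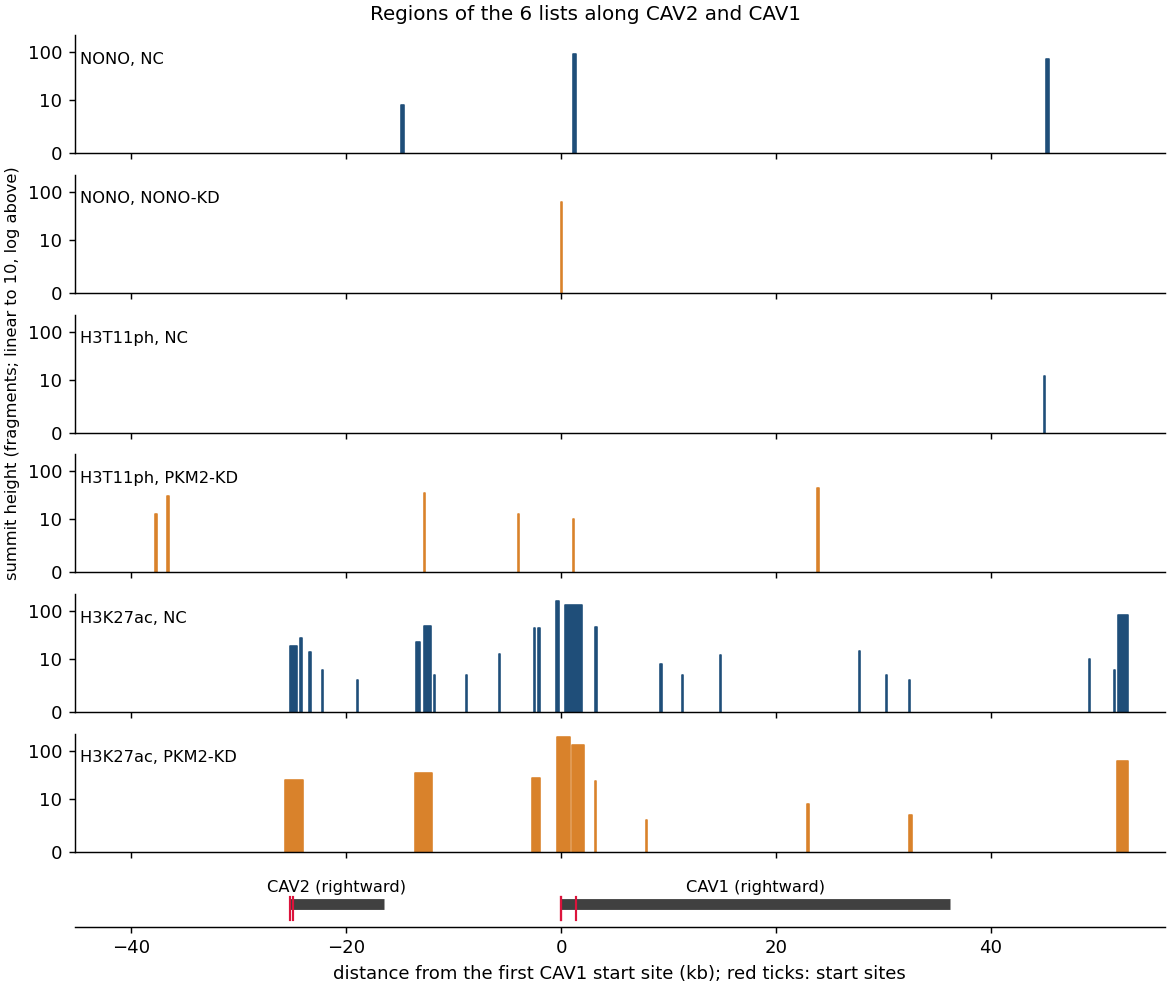
Regions of the 6 lists along CAV2 and CAV1, by distance from the first CAV1 start in kb; bar width is the region's width, bar height its summit in fragments (linear to 10, log above), blue NC and orange knockdown, with red ticks at the start sites. The H3T11ph tracks hold 1 region in NC and 6 in PKM2-KD, and H3K27ac is tallest at the CAV1 starts in both libraries.

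H3T11ph lay at the start of 2 of 9 genes in NC (AXL and MET; 16.1% of all genes) and of 2 of 9 in PKM2-KD (AXL and CAV1; 16%). The MET region, chr7:116672068-116672205, had its summit of 29 fragments at -75 bp from the start, and PKM2-KD had none within 1 kb. At AXL the NC region chr19:41225793-41226005 had 129 fragments and its summit at -920 bp from the second start, and the PKM2-KD region chr19:41226224-41226334 had 27 fragments and its summit at -497 bp, without overlap. At CAV1 the PKM2-KD region chr7:116526148-116526250 had 10 fragments.

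The share of NC H3T11ph regions found again after PKM2 knockdown was 5 of 35 (14.3%, 6.26 to 29.4), against 5.75% over the whole lists. Those regions lay at EGFR (2), MET (1) and NRP1 (2), and each overlapped an H3K27ac region in both libraries. At MET the pair at chr7:116716758-116716927 in NC and chr7:116716791-116716927 in PKM2-KD had 67 and 87 fragments. At EGFR the summits were 45 and 41 fragments at 1 site and 18 and 76 at the other, and at NRP1 they were 39 and 70, and 119 and 33. The sites went in both directions by these heights, which come from lists of unlike narrowest width (111 and 91 bp).

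NONO and H3T11ph regions lay in acetylated places more often here than over the whole lists. An H3K27ac region was overlapped in NC by 37 of 67 NONO regions (55.2%, 43.4 to 66.5) and by 21 of 35 for H3T11ph (60%, 43.6 to 74.5), against 16.8% and 19.7% over the whole lists. In PKM2-KD 24 of 39 H3T11ph regions (61.5%, 45.9 to 75.1) did, against 24.2%. H3K27ac itself covered 13.8% of the merged windows in NC and 16.3% in PKM2-KD. The part of this acetylated ground in the difference from the whole lists was not tested. NONO and H3T11ph shared less: 4 of 67 NONO regions in NC (5.97%, 2.35 to 14.4) overlapped an H3T11ph region, against 2.95%.

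All 3 targets met in NC at 4 places, in the windows of EGFR (1), AXL (2) and NRP1 (1), where the NRP1 place lay in the flank rather than in the gene. The AXL places, chr19:41223555-41224004 and chr19:41225643-41226012 for NONO, lay inside the 7230 bp acetylated region before the second start, where the H3T11ph summits were 49 and 129 fragments. At EGFR the NONO region chr7:55073786-55074054 (66 fragments) touched an H3T11ph region of 35 fragments inside the H3K27ac region with 287. At NRP1 the NONO region chr10:33336312-33336580 (51 fragments) met an H3T11ph region of 119 fragments and an H3K27ac region of 104. CAV1, CAV2, MET, EPHA2, CD44 and TGFBR2 held none.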

How the data were processed

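CUT&Tag libraries of MDA-MB-231 cells (NONO in NC and NONO-KD; H3T11ph and H3K27ac in NC and PKM2-KD) were used as deposited narrowPeak lists, 1 per library. The submitters' processing notes name the hg38 build, FastQC 0.11.9, cutadapt 1.18, SAMtools 1.3.1 and MACS2 2.1.1.20160309; the aligner, control and settings are not given in the sources used here. Each deposited list holds a score (the whole part of 10 times −log10 q), a fold ratio of the summit over the caller's background, and −log10 p and −log10 q, all made by the authors' peak calling on 1 library. The smallest deposited −log10 q was between 1.30 and 1.32.

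Starts were converted to 1-based positions. Genes and promoters came from RefSeq (GRCh38.p14); 4162 of 19974 protein-coding genes had no listed start and were given both ends. Regions overlapping by at least 1 bp were shared. Summit heights in fragments were recovered from fold and −log10 p under a Poisson background (tolerance 0.002 in −log10 p), after a factor of 0.521 in H3K27ac NC; between 99.85% and 100% of tried rows matched per list, and the step was tested on simulated data. Sites are chains of overlapping NC and PKM2-KD regions. Shares have Wilson intervals and ratios of counts exact binomial intervals (95%). With 1 library per group no test was run; a fold rule of 2 on windows with 4 or more regions stands in for one. Python 3.11.15, numpy 2.4.6, pandas 2.3.3 and scipy 1.17.1 were used.

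The genes, lists and alternatives were chosen with earlier results of these data known. The text names all 9 genes with their regions of highest fold, tallest or widest acetylation and start, fixed paralogs, the highest and lowest ligands or partners, and marker genes. H3K27ac heights, sites and the filter of 20 fragments were chosen after the data were seen, as were the H3K27ac sites singled out by their height ratio.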

Additional observations from a re-analysis of the deposited data

How the results depend on the processing

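Each alternative changed 1 choice. No paired analysis was possible because the groups are single libraries. Of 67 values under alternatives, 46 stayed close to the value reported (within counting error, or within a fixed margin for counts of genes), 18 moved further and 3 changed direction. The 3 are the H3K27ac count ratio: 118.6% at a −log10 q of at least 5, 140.9% among regions at least 2 times the narrowest width, and 132.0% with equal list lengths, against 72.5%. The share of H3K27ac NC regions found again (47.9%) was 60.9%, 75.8% and 61.3% in these settings, 52.5% with windows of 5 kb and 41.9% with an overlap of at least 50%. Among the wider regions, only 3 NONO NC and 4 H3T11ph NC regions were left: the share of NONO found again was 0%, the overlap of NONO with H3T11ph was 0%, that of NONO with H3K27ac was 33.3% and that of H3T11ph with H3K27ac was 100%, and starts with a region numbered 0 in both NONO and both H3T11ph lists. NONO in H3K27ac (55.2%) was 38.8% with equal list lengths and 28.4% with an overlap of at least 50%, where the share of NONO found again was 0%. With starts widened to 2.5 kb, 5 genes had NONO in NC and 4 had H3T11ph in PKM2-KD. Leaving out each gene in turn moved no value beyond counting error. The median log2 ratio of H3K27ac heights was 0.12 at a −log10 q of at least 5, a setting chosen after the data were seen. Lists hold called regions only, so signal below the caller's threshold was not seen, and a place without a region is not a place without the protein or mark.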
